A study of Mus musculus with 12 samples.

Results

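Whole ventral hippocampus (vHPC) RNA was compared between FosB KO and WT mice in 6 input libraries of the 12 in the series, 3 from WT pools numbered 1, 2 and 3 and 3 from KO pools numbered 2, 3 and 4. Input is the RNA of the tissue punch itself, before ribosomes were purified from it, and the other 6 libraries hold the ribosome-bound RNA (TRAP) of the same pools. Libraries were assigned to the groups by their labels. Of the 37310 genes counted, 12816 passed the filter on low counts and were tested. All mice were C57BL/6 by strain and carried Rosa26 eGFP-L10a, a gene for a GFP-tagged ribosomal protein that is silent until Cre acts. All received retrograde HSV-Cre in the nucleus accumbens (NAc), and vHPC was taken 3 weeks later with a biopsy punch under fluorescence. The KO mice were FosB fl/fl, in which Cre removes exons 2 and 3 of FosB, and the WT mice were littermates without the floxed allele. Each pool held 3 mice by its sample label, while the protocol gives 3 to 4. Cre reached only neurons whose axons end in NAc, so the deletion touched a subset of the cells in the punch, while the floxed allele itself was present in every cell of a KO mouse. The age of these crossed mice is not given in the sources used here.

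FosB is a member of the Fos family of transcription factors, which pair with Jun proteins to form AP-1 and bind AP-1 and CRE motifs in promoters and enhancers. Its shorter form, ΔFosB, is unusually stable and builds up in hippocampus, NAc and other regions after repeated neuronal activity, stress or drug exposure. A whole-tissue sample averages over pyramidal cells, granule cells, interneurons, glia and vessels, and in bulk RNA fewer cells of a type and less RNA per cell cannot be told apart.

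Between 3416030 and 4636374 reads per input library were counted on genes. At those depths 3 counts, the least that was read as present, equal 0.647 to 0.878 CPM, the counts as a rate per library total, before scaling. Such limits cover counting error only. Pan-neuronal genes summed to 19081 to 20174 CPM per library, and Slc17a7, the vesicular glutamate transporter of hippocampal pyramidal cells, was at 500 to 616 CPM, so that the labelled tissue was met by its neuronal markers. WT input 1 and KO input 3 stood apart from the other 4 libraries. WT input 1 had counts on 15678 genes where the others had counts on 17255 to 18090, and it lay alone on the first principal component, which held 42.7% of the variance. KO input 3 lay alone on the second, with 19.3%. Calls and several marker lists are given with and without them. CPM were scaled with edgeR's TMM method over the 6 input libraries. Genotypes were compared with edgeR's quasi-likelihood test, a gene was called at a Benjamini-Hochberg adjusted p under 0.05 over all genes tested, and log2 fold changes are KO over WT. With 3 pools in each genotype, 0.1 is the lowest two-sided p that exact permutation of the labels allows.

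Fosb, the targeted gene (ENSMUSG00000003545.2, mm9 chr7:19888070-19895394, minus strand), was lower in KO input, but the difference did not pass the adjusted threshold. WT input 1, 2 and 3 held 30.2, 22.0 and 24.2 CPM, and KO input 2, 3 and 4 held 16.9, 15.9 and 14.8 CPM. Every KO pool was below every WT pool. The raw counts were 104, 97 and 111 in WT and 72, 72 and 68 in KO. The group means were 25.5 ± 4.22 CPM in WT and 15.9 ± 1.05 CPM in KO (SD, n = 3), a log2 fold change of -0.68 (SE 0.22, unadjusted p = 0.00557, edgeR adjusted p = 1.00), and exact permutation gave its lowest p, 0.1. Reads from exons that the deletion spares were counted with the rest, and the counts do not separate them.

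Few genes differed between KO and WT across the whole punch. Of 12816 genes tested, 4 were called, which is 0.0312%. Gm10036 rose, and Efr3b, Dnajc27 and an RNase P gene fell. Without adjustment, 371 genes (2.89%) had a p under 0.05, fewer than the 640.8 that make up 5% of those tested. Of these, 181 were higher in KO (1.41%) and 190 lower (1.48%). Over all genes tested the median log2 fold change was -2.45e-05, the median size of a change was 0.14, and the median SE was 0.21. Leaving out WT input 1 gave 5 calls, leaving out KO input 3 gave 2, and leaving out both gave 14, among them the same 4. Gm10036 alone was called in all 17 alternative analyses. The RNase P gene was called in 15, Efr3b in 13 and Dnajc27 in 12, and each kept its direction in all of them.

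**Figure D1:**
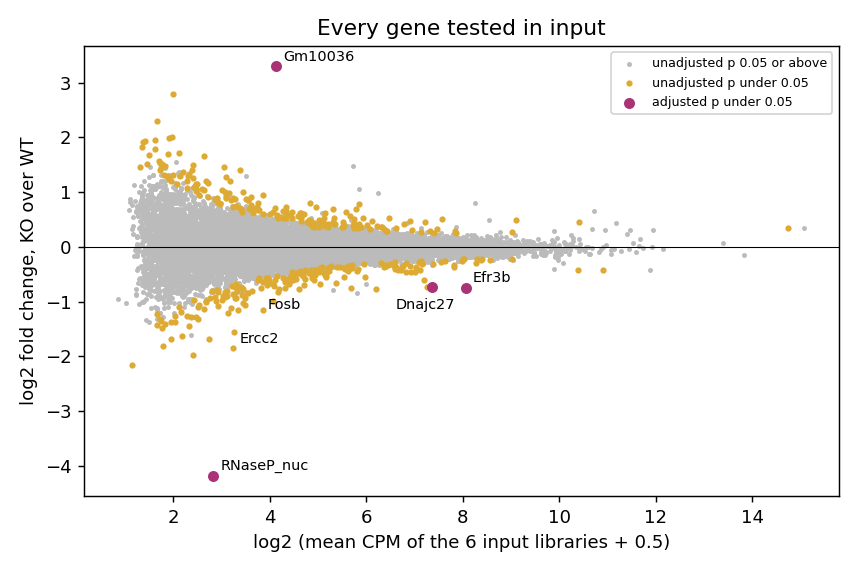
Log2 fold change of KO over WT (y axis) against mean level (x axis, log2 of CPM + 0.5) for the 12816 genes tested in 6 input libraries. The 4 genes with an adjusted p under 0.05 are drawn large and named, and Fosb and Ercc2, which did not pass, are named too. Most genes lie near 0, with a wider spread at low levels.

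Efr3b and Dnajc27, neighbours on chromosome 12, fell to about the same extent. Efr3b (ENSMUSG00000020658.8, mm9 chr12:3962554-4038915, minus strand) encodes a plasma membrane protein that anchors a phosphatidylinositol 4-kinase complex. It was at 304, 358 and 337 CPM in WT input 1, 2 and 3 and at 194, 177 and 225 CPM in KO input 2, 3 and 4. The highest KO pool was well below the lowest WT pool. The means were 333 ± 27.3 CPM in WT and 199 ± 24.4 CPM in KO (SD, n = 3), and Efr3b fell by 0.74 on the log2 scale (SE 0.11, edgeR adjusted p = 0.0176), a level 1.67 times higher in WT.

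Dnajc27 (ENSMUSG00000020657.8, mm9 chr12:4082612-4110602, plus strand) encodes a small GTPase-like protein with a J domain, the part that binds Hsp70 chaperones. WT input 1, 2 and 3 held 181, 215 and 216 CPM and KO input 2, 3 and 4 held 117, 117 and 133 CPM. Again no KO pool reached a WT pool. The means were 204 ± 20.1 and 122 ± 9.15 CPM (SD, n = 3), and Dnajc27 fell by 0.74 on the log2 scale (SE 0.12, edgeR adjusted p = 0.0211). Both calls were lost without KO input 3, without KO input 2, without WT input 2 and without WT input 3, where the adjusted p rose as high as 0.422 for Efr3b and 0.432 for Dnajc27, and Dnajc27 also without KO input 4. Across all alternatives the log2 fold change stayed between -0.90 and -0.67 for Efr3b and between -0.88 and -0.69 for Dnajc27.

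Of the 40 genes tested within 10 Mb of Efr3b, 20 were higher in KO and 20 lower, but the 4 with an unadjusted p under 0.05 (10% of the 40, where 2.89% of all genes were) were all lower, and 2 of these are the called genes that place the window. Within 10 Mb of Gm10036, called on another chromosome, 6 of 66 were at that p (9.09%), 3 higher and 3 lower. In the window around Efr3b, the genes at that p besides Efr3b and Dnajc27 were Adcy3 and 2410017P09Rik, which did not pass the adjusted threshold. Adcy3, the adenylyl cyclase of neuronal cilia, was at 34.8, 33.9 and 37.3 CPM in WT and 22.8, 24.5 and 27.2 CPM in KO, a log2 fold change of -0.51 (SE 0.18, unadjusted p = 0.00975). 2410017P09Rik was at 17.4, 8.63 and 14.0 CPM in WT and 7.98, 7.28 and 6.32 CPM in KO, a log2 fold change of -0.88 (SE 0.32, unadjusted p = 0.0139). In both, the groups did not overlap. Exons of both overlap Cenpo on the other strand, and since the strand setting of the counting is not given, their reads cannot be assigned to a strand.

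The promoters of the targeted gene and of the called neighbours are shown because FosB acts through AP-1 and CRE motifs in such sequences. Each is the 250 bases before the RefSeq start (GRCm38.p6), 5′ to 3′ on the strand of the gene, and capitals mark TGANTCA (AP-1) or TGACGTCA (CRE), searched on both strands, where each motif reads the same. The CRE letters were added to the search after the sequences were seen.
Fosb, chr7:19310046-19310295, minus strand: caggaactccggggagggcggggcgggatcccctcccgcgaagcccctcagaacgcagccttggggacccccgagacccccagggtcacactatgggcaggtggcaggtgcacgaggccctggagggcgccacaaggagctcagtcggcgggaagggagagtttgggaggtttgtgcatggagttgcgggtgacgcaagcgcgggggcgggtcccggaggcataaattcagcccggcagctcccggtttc
Efr3b, chr12:4038916-4039165, minus strand: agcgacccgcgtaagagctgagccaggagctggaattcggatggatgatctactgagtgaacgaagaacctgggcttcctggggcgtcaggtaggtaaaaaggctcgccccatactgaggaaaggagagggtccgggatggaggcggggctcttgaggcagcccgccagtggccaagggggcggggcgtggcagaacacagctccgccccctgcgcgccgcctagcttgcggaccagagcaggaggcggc
Dnajc27, chr12:4082324-4082573, plus strand: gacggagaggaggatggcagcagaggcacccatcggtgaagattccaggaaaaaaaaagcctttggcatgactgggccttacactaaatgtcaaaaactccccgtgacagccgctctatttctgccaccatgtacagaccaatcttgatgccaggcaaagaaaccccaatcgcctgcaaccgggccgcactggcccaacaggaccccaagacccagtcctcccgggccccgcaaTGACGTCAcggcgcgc
Dnajc27 has a CRE match that starts 16 bases before the gene start, and the other windows hold neither motif. Of the 32851 promoters of the RefSeq table, 6.75% hold TGANTCA and 1.55% TGACGTCA in the same window. A match is no evidence of binding. Only 9910 of the 12816 genes tested could be matched to a promoter, under 80%, so a comparison of shares between gene sets is void and none is given.

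An RNase P gene was the most strongly reduced of the called genes. RNase P is the ribonucleoprotein that trims the 5′ ends of precursor tRNAs, and the annotation names many short genes for its RNA after sequence similarity. The name RNaseP_nuc is shared by 18 genes, of which 5 had any count. The called gene is ENSMUSG00000088025.1, a miscellaneous RNA of 290 bases on chromosome 8, whose exon overlaps no other. Its sequence is given because the name alone does not identify it, read from mm9 on its own strand with no part marked.
RNaseP_nuc, chr8:3803069-3803358, minus strand: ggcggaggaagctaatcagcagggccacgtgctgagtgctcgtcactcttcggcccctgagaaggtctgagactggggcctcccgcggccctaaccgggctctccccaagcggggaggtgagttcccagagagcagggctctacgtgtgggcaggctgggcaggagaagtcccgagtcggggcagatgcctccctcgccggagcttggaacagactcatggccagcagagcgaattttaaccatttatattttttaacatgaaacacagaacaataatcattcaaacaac
WT input 1, 2 and 3 held 24, 64 and 74 reads of it and KO input 2, 3 and 4 held 1, 5 and 3 reads. Scaled, these were 6.97, 14.5 and 16.1 CPM in WT and 0.235, 1.10 and 0.654 CPM in KO. All WT pools were far above all KO pools, which lay near the level of 3 counts. The gene passed the filter on low counts through WT only, the group where it was high, so some difference was bound to appear. The RNA fell by 4.18 on the log2 scale (SE 0.54, edgeR adjusted p = 0.00228), 18.1 times higher in WT, with a range of -5.003 (without both libraries that stood apart) to -3.80 over the alternatives. The call was lost without KO input 2 and without WT input 3, where the adjusted p reached 0.0619. A further RNaseP_nuc gene, on chromosome 6 (ENSMUSG00000088675.1), had too few reads to be tested, 1, 4 and 13 in WT and 0, 0 and 0 in KO. In TRAP the called gene had 1 read in WT pool 3 and none in the other 5 libraries, so nothing can be said of it in NAc-projecting neurons.

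Gm10036, on chromosome 18, was the single gene that rose at the adjusted threshold. It was at 3.19, 2.27 and 3.93 CPM in WT input 1, 2 and 3, from 11, 10 and 18 reads. It was at 28.2, 40.6 and 24.4 CPM in KO input 2, 3 and 4, from 120, 184 and 112 reads. The lowest KO pool was more than 6 times above the highest WT pool. Its log2 fold change was 3.30 (SE 0.31, edgeR adjusted p = 3.3e-05), a 9.83-fold higher level in KO, and over the alternatives it ran from 3.06 to 3.52.

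The exon of Gm10036 is a near copy of the mRNA of Rpl11, a protein of the large ribosomal subunit, with 99.1% identity over its 583 bases. All 21 of its 75-base stretches have another place in mm9 within 2 mismatches, so its reads can be told from those of Rpl11 only where they cross a difference, and its counts are uncertain. Rpl11 itself was at 107, 140 and 139 CPM in WT and 122, 119 and 97.8 CPM in KO, overlapping, with a log2 fold change of -0.20 (SE 0.14, unadjusted p = 0.168).

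Other gene copies were among the genes with the smallest p-values that were higher in KO without passing the threshold. Such genes were picked by smallest p only among those with groups apart, here and below, so their lack of overlap is no result. Gm5506, 99.5% identical to Eno1 (the glycolytic enzyme enolase) over 1648 aligned bases, had 0, 3 and 8 reads in WT and 28, 34 and 20 in KO, which did not overlap (log2 fold change 2.79, SE 0.68, unadjusted p = 0.000655, edgeR adjusted p = 0.524). Gm5506 passed the filter on low counts through KO only, the group where it was high, so some difference was bound to appear. It passed the adjusted threshold without the filter. Its log2 fold change ran from 2.31 (without WT input 1) to 3.93 (without WT input 3) with single pools left out. Gm11223, 99.5% identical to Stmn1 (the microtubule regulator stathmin) over 970 bases, was at 30.8, 27.9 and 31.0 CPM in WT and 48.4, 49.7 and 47.3 CPM in KO (log2 fold change 0.70, SE 0.16, unadjusted p = 0.000388). For these copies 95.4% and 83.3% of the exon stretches have another place. The source genes went the other way in log2 fold change, Eno1 by -0.22 (SE 0.10, unadjusted p = 0.0406) and Stmn1 by -0.37 (SE 0.15, unadjusted p = 0.0281), neither passing the adjusted threshold.

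**Figure D2:**
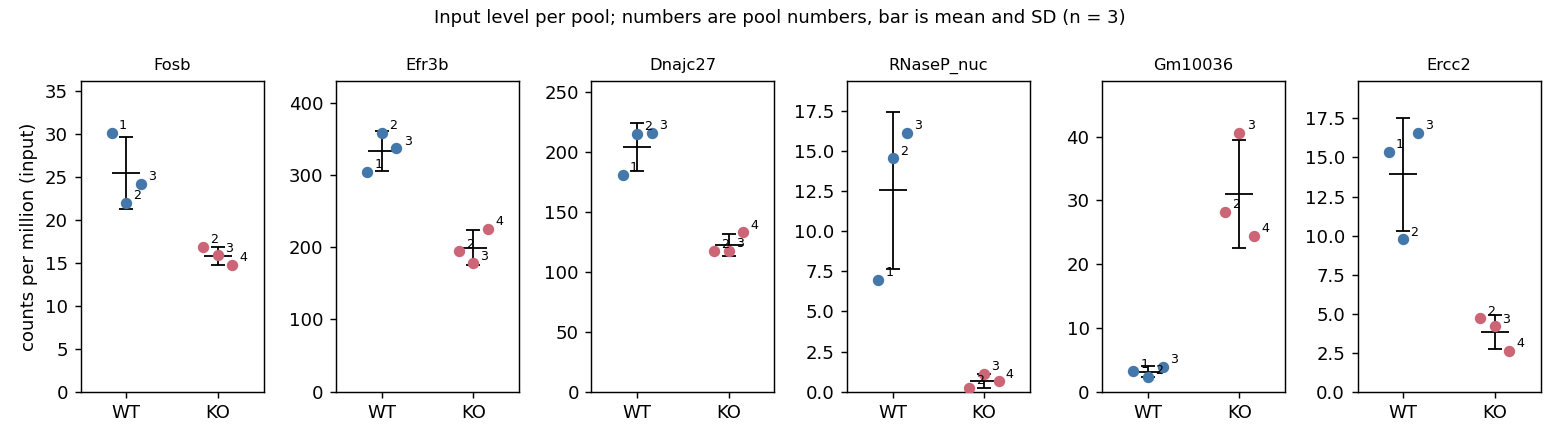
Level in each input pool (points, numbered by pool, y axis in CPM from 0) with the group mean and SD (n = 3), for Fosb, the 4 called genes and Ercc2. In every panel the WT and KO pools are separated, by the widest ratio in RNaseP_nuc and Gm10036.

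Among genes that flank Fosb on chromosome 7, a larger share was lower in KO than among all genes. Of 178 genes tested whose start lies within 10 Mb of that of Fosb, 29 were lower at an unadjusted p under 0.05, where 1.48% of all genes were, and 1 was higher. None was called, the smallest adjusted p being 0.139. These 29, Fosb among them, make up 15.3% of the 190 such genes, and the window holds 1.39% of the genes tested. In 23 of the 29 the groups did not overlap, where 4.14% of all genes tested had every KO pool below every WT pool, but a gene with a small p is likely to be separated. The genes share a chromosome, and no test was made of the region. Of all 178, 115 were lower in KO and 63 higher, with a median log2 fold change of -0.09.

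The share fell with distance from Fosb. Within 5 Mb, 19 of 62 genes were lower at that p and 46 of 62 were lower in sign (median -0.17). From 5 to 10 Mb it was 10 of 116, from 10 to 20 Mb 6 of 135, and from 20 to 40 Mb 0 of 111. Over 40 Mb away, 4 of 522 were lower and 8 higher. Chromosome 7 as a whole had 5.39% of its 946 genes under that p, and the other autosomes and X had 1.24% to 3.52%. Without WT input 1 the window held 25 such lower genes, without KO input 3 it held 27 and without both 29. The lowest number, 17 of 182, came without WT input 3.

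**Figure D3:**
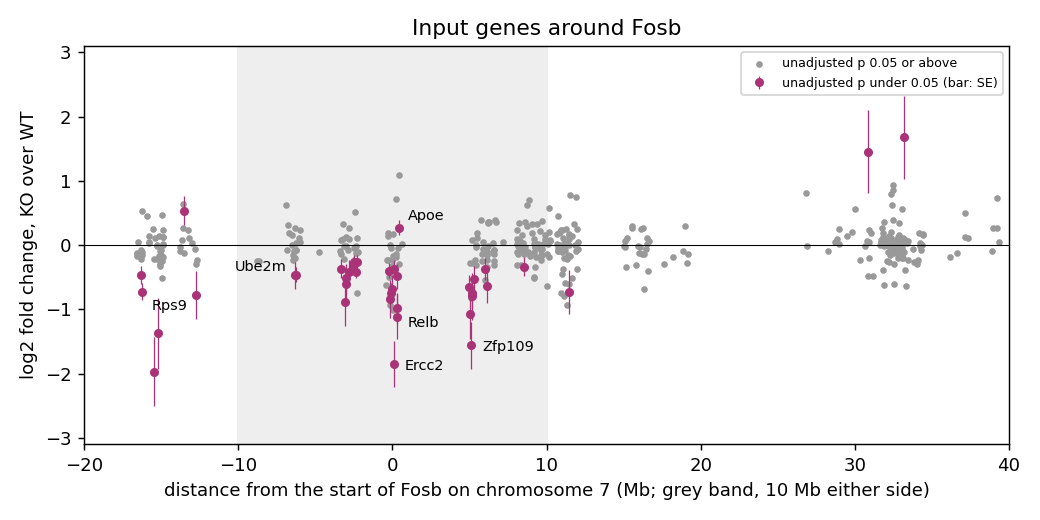
Log2 fold change of KO over WT in input (y axis) against distance of a gene's start from that of Fosb (x axis, Mb) for 424 genes of chromosome 7. Coloured points with SE bars have an unadjusted p under 0.05, and the grey band spans 10 Mb either side. Coloured points in the band lie below 0 with the exception of Apoe.

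Within 0.5 Mb of Fosb, 9 of 30 genes were lower at that p and 1 was higher. Ercc2, a helicase of the TFIIH complex in transcription and DNA repair, had the largest difference in the window. It was at 15.4, 9.77 and 16.6 CPM in WT and 4.70, 4.19 and 2.61 CPM in KO, without overlap (log2 fold change -1.85, SE 0.36, unadjusted p = 6.49e-05, edgeR adjusted p = 0.139). It passed the adjusted threshold with DESeq2 and without the filter on low counts. Its exons overlap Klc3 and Gm17574 on the other strand and Mir343 on its own, so its counts are uncertain.

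Opa3, a mitochondrial protein mutated in optic atrophy, was at 56.9, 61.6 and 72.4 CPM in WT and 41.6, 34.4 and 37.9 CPM in KO (log2 fold change -0.75, SE 0.16, unadjusted p = 0.00019). Gemin7, a subunit of the SMN complex that assembles spliceosomal particles, was at 24.4, 21.6 and 18.8 CPM in WT and 11.5, 12.1 and 8.93 CPM in KO (log2 fold change -0.99, SE 0.25, unadjusted p = 0.00084). Relb, an NF-κB subunit, was at 16.8, 11.1 and 7.85 CPM in WT and 5.40, 4.86 and 6.10 CPM in KO (log2 fold change -1.11, SE 0.35, unadjusted p = 0.0056). The pools of the genotypes were apart in all of these, by least in Relb, where WT input 3 was close to KO input 4. Opa3 passed the adjusted threshold with limma voom, without the filter and with the pool number as a block.

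Fbxo46, Dmwd, Mark4 (a microtubule affinity kinase) and Clasrp had log2 fold changes of -0.84, -0.40, -0.37 and -0.49. Apoe, the main lipid carrier of brain and an astrocyte product, was the single gene of the window that was higher at that p, at 508, 401 and 492 CPM in WT and 654, 534 and 503 CPM in KO, with overlap (log2 fold change 0.27, SE 0.12, unadjusted p = 0.035). Not every close neighbour was low. Ercc1, which starts 0.04 Mb from Fosb, was at 4.35, 8.86 and 12.2 CPM in WT and 8.22, 11.7 and 9.15 CPM in KO (log2 fold change 0.17, SE 0.36, unadjusted p = 0.635), with exons that overlap Cd3eap on the other strand, and Rtn2, 0.02 Mb on the other side, had overlapping groups (log2 fold change -0.23, SE 0.20, unadjusted p = 0.257).

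Farther out, Calm3, which encodes calmodulin, was at 2121, 2191 and 2301 CPM in WT and 1624, 1613 and 1701 CPM in KO (log2 fold change -0.42, SE 0.09, unadjusted p = 0.000211, edgeR adjusted p = 0.301). Its groups were tight and did not overlap. It passed the adjusted threshold with DESeq2, with limma voom, with all 12 libraries, with the pool number as a block and without the filter. Ube2m, the conjugating enzyme for the ubiquitin-like protein NEDD8, was at 146, 146 and 154 CPM in WT and 103, 118 and 103 CPM in KO (log2 fold change -0.46, SE 0.12, unadjusted p = 0.000961). On the far side lies a zinc finger cluster, and 7 of the 29 are Zfp genes. Of the 25 Zfp genes tested in the window 15 were lower in sign, and of 314 tested in the genome 136 were. Zfp109 was at 8.71, 18.2 and 13.5 CPM in WT and 6.34, 4.19 and 3.27 CPM in KO (log2 fold change -1.56, SE 0.37, unadjusted p = 0.000485), and 8.33% of its exon stretches have another place. For Zfp93 that share was 49.5%, so its counts are uncertain.

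Rps9 and Ndufa3 lie outside the window, about 16 Mb from Fosb toward the centromere. Rps9, a protein of the small ribosomal subunit, was at 175, 182 and 210 CPM in WT and 128, 124 and 91.3 CPM in KO (log2 fold change -0.72, SE 0.14, unadjusted p = 4.37e-05, edgeR adjusted p = 0.112), without overlap. It passed in those same analyses and without both libraries that stood apart. Of its exon stretches 13.8% have another place. Ndufa3, a subunit of respiratory complex I, was at 118, 140 and 133 CPM in WT and 106, 101 and 75.8 CPM in KO (log2 fold change -0.46, SE 0.14, unadjusted p = 0.00373), also without overlap. They were the members with the smallest p of their gene lists. Of 80 ribosomal protein genes tested, Rps9 was the single one with an unadjusted p under 0.05 (median -0.02), and of 75 nuclear genes of oxidative phosphorylation 2 were, both lower (median -0.03). Without both libraries that stood apart, 5 ribosomal protein genes and 7 oxidative phosphorylation genes were lower at that p.

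Further from these regions, the genes with the smallest p-values did not pass the adjusted threshold. They too were picked only among genes whose groups did not overlap. Scg5, the chaperone 7B2 of the prohormone convertase PC2, was at 112, 78.2 and 85.5 CPM in WT and 54.0, 55.6 and 52.5 CPM in KO (log2 fold change -0.76, SE 0.15, unadjusted p = 9.54e-05, edgeR adjusted p = 0.175). Its KO pools were nearly equal and all below WT, and it passed with DESeq2, with all 12 libraries and without the filter. The gene mmu-mir-2134-4 on chromosome 9 (ENSMUSG00000076281.1), an annotated miRNA gene of 57 bases, was at 1669, 1339 and 1619 CPM in WT and 1168, 1067 and 1205 CPM in KO (log2 fold change -0.43, SE 0.10, unadjusted p = 0.000653).

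On the higher side, Peg10, an imprinted gene derived from a retrotransposon, was at 45.3, 33.2 and 47.6 CPM in WT and 72.6, 66.6 and 64.5 CPM in KO (log2 fold change 0.69, SE 0.16, unadjusted p = 0.000506, edgeR adjusted p = 0.499). Ndn, the imprinted gene of the growth suppressor necdin, was at 127, 125 and 124 CPM in WT and 181, 187 and 145 CPM in KO (log2 fold change 0.45, SE 0.12, unadjusted p = 0.00165). Both sets of pools were apart, as the choice required. Peg10 passed the adjusted threshold without the filter, and Ndn with the pool number as a block. Of 28 imprinted genes tested, 3 were higher at an unadjusted p under 0.05 (Peg10, Ndn and Igf2) and none lower, and 20 were higher in sign with a median of 0.07. Without KO input 3 there were 2 higher and 1 lower.

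The processed transcript 6330403K07Rik was at 145, 141 and 183 CPM in WT and 225, 243 and 202 CPM in KO (log2 fold change 0.51, SE 0.12, unadjusted p = 0.00061). Fat4, an atypical cadherin, was at 52.8, 44.8 and 50.4 CPM in WT and 63.4, 72.2 and 78.9 CPM in KO (log2 fold change 0.54, SE 0.15, unadjusted p = 0.00215). Dsp, the desmosomal protein desmoplakin and a marker of dentate granule cells, was at 3.77, 5.45 and 3.27 CPM in WT and 8.69, 8.39 and 17.4 CPM in KO (log2 fold change 1.46, SE 0.39, unadjusted p = 0.00157). Groups did not overlap in any of these, as the choice required. Of 12816 genes tested, 544 had every KO pool above every WT pool. KO input 4 was the highest library for Dsp. The transcript 6330403K07Rik passed the adjusted threshold without the filter and with the pool number as a block. Exons of Fat4 and Dsp overlap C230034O21Rik and Gm10129 on the other strand.

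The TRAP libraries of the same pools were tested apart, and each comparison's own values are given, since input and TRAP share mice. In TRAP, 8 of 11727 genes were called (0.0682%). Gm10036 and Efr3b were among those, with log2 fold changes of 2.63 (SE 0.33, edgeR adjusted p = 0.000272) and -0.72 (SE 0.10, edgeR adjusted p = 0.000439). Dnajc27 had a log2 fold change of -0.57 in TRAP (SE 0.13, edgeR adjusted p = 0.104). Fosb had -0.76 (SE 0.21, unadjusted p = 0.00126), against -0.68 in input, and the difference of these was 0.08 (SE 0.30, unadjusted p = 0.791). In the window around Fosb, 25 of 166 genes were lower in TRAP at an unadjusted p under 0.05, where 3.37% of all genes were. Both comparisons use the same pools. Ercc2 had a log2 fold change of -1.01 in TRAP (SE 0.38, unadjusted p = 0.0138) and Opa3 of -0.77 (SE 0.16, unadjusted p = 9.03e-05).

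**Figure D4:**
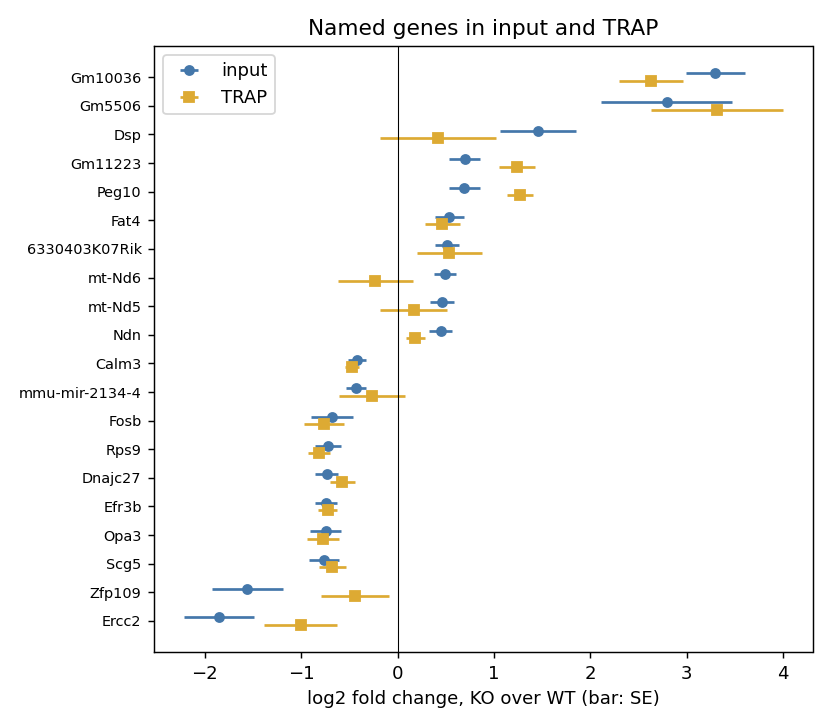
Log2 fold change of KO over WT with SE (x axis) for 20 genes (y axis), in input (circles) and in TRAP (squares). The genes are Fosb, those called in input, and those with the next smallest p-values, where TRAP could be tested. Efr3b is at -0.74 in input and -0.72 in TRAP, and mt-Nd6 is above 0 in input and below it in TRAP.

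By the test of the difference itself, 1 of 13214 genes changed differently in input and TRAP (0.00757%). Epas1, the hypoxia-inducible factor HIF-2α, strong in endothelium and astrocytes, was at 116, 132 and 122 CPM in WT input and 145, 143 and 130 CPM in KO input, which overlap. In TRAP it was at 23.6, 23.0 and 24.1 CPM in WT and 7.08, 10.6 and 12.6 CPM in KO, which do not. The log2 fold change was 0.18 in input (SE 0.12, unadjusted p = 0.146) and -1.21 in TRAP (SE 0.27, unadjusted p = 0.000187). The difference was 1.38 (SE 0.23, edgeR adjusted p = 0.0233). The call was lost when any pool other than KO pool 4 was left out, with an edgeR adjusted p of up to 0.796.

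Gene lists for the Fos family and its possible targets showed little movement in input. Among 6 AP-1 genes tested, Fosb was the single one with an unadjusted p under 0.05. Its partners and relatives Fos, Fosl2, Jun, Junb and Jund had log2 fold changes from -0.08 to 0.18. Of 36 other immediate early genes, which neurons switch on within minutes of activity, Nr4a2 was under that p, at 124, 105 and 99.9 CPM in WT and 80.5, 95.1 and 73.9 CPM in KO without overlap (log2 fold change -0.40, SE 0.14, unadjusted p = 0.0104). Arc and Egr1 had 0.16 and -0.10, both with an unadjusted p above 0.3. Of 10 genes reported as ΔFosB targets, Calb1, the calcium buffer calbindin, was under that p, at 217, 205 and 194 CPM in WT and 225, 253 and 273 CPM in KO (log2 fold change 0.29, SE 0.11, unadjusted p = 0.0178). The medians of these lists were -0.02, -0.07 and -0.03. Without WT input 1 the immediate early genes had 2 members higher and 0 lower at that p, without KO input 3 they had 0 and 1, and without both 1 and 1, with a median of 0.08.

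Channels, receptors and scaffolds had few members at such a p. Of 22 glutamate receptor genes, Grik2 and Grin2a were higher at an unadjusted p under 0.05. Grik2, a kainate receptor subunit, was at 23.2, 29.8 and 29.0 CPM in WT and 41.1, 38.6 and 47.5 CPM in KO without overlap (log2 fold change 0.63, SE 0.18, unadjusted p = 0.00225). For Grin2a, an NMDA receptor subunit (log2 fold change 0.31), 48.6% of the exon stretches have another place. Among GABA receptor genes, Gabra2 was at 36.9, 47.5 and 40.1 CPM in WT and 28.2, 29.6 and 30.1 CPM in KO (log2 fold change -0.51, SE 0.17, unadjusted p = 0.00844), without overlap. Of 68 potassium channel genes 2 were higher and 0 lower, Kcnd3 and Kcnj14, and 86.7% of the exon stretches of Kcnj14 have another place. Of 36 sodium, calcium and HCN channel genes 2 were higher and 0 lower, and without KO input 3 none was at that p. No gene was under that p among 26 postsynaptic density genes, 6 adrenergic receptor genes, 10 monoamine receptor genes, 16 circadian, 11 heat shock, 11 hypoxia, 12 stress hormone, 18 interferon or 10 MHC genes. Without WT input 1 there was 1 interferon gene higher at that p, and without both libraries that stood apart 2. Over all 45 lists, 45 of 728 distinct members were under it (6.18%, against 2.89% of all genes tested) and none was called. Of these, 33 were higher (4.53%, against 1.41%) and 12 lower (1.65%, against 1.48%). Some of the higher members, Col1a1, Tagln, Abcb1a and Prlr among them, passed the filter through KO only and were bound to differ. The lists were chosen with results known, and no test was made of these shares.

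Marker lists of other cell types were read by counts and sums, and none of their members was called. Pan-neuronal, astrocyte and microglial genes had no member with an unadjusted p under 0.05 among 25, 18 and 15 tested. Of the astrocyte genes 2 were higher at that p without WT input 1, 2 without KO input 3 and 2 without both, and of the neuronal genes 2 were lower without KO input 3 and 1 without both. The microglial median was -0.21, and it was 0.00 without WT input 1, 0.06 without KO input 3 and 0.20 without both. Of 18 GABA neuron genes 10 were higher in sign (median 0.06), and the median ran from 0.002 to 0.16 with single pools left out. Their sums were 1163 to 1237 CPM in WT and 1244 to 1358 CPM in KO, without overlap. Calb2, the calcium buffer calretinin, was at 108, 83.8 and 107 CPM in WT and 112, 150 and 150 CPM in KO, also without overlap (log2 fold change 0.47, SE 0.14, unadjusted p = 0.00425). Of 15 oligodendrocyte genes 11 were lower in sign (median -0.08), and the median ran from -0.30 to 0.16 with single pools left out. Without WT input 1 it was -0.24 with 3 lower at that p, and without KO input 3 it was 0.16 with none. The oligodendrocyte genes had sums of 778 to 1172 CPM in WT and 703 to 1153 CPM in KO. Mobp, a myelin protein, was at 97.8, 108 and 156 CPM in WT and 102, 72.2 and 96.5 CPM in KO, with overlap (log2 fold change -0.43, SE 0.17, unadjusted p = 0.0264). Of 10 meningeal genes 6 passed the filter on low counts, and 3 of these, Col1a1 among them, reached its minimum in all KO libraries but not in all WT ones. Genes that pass through the group where they are high are bound to differ, so no count or median over the 6 is given as support. With no filter, 9 of all 10 were higher in KO in sign and the median log2 fold change was 0.96. Col1a1, the fibrillar collagen of fibroblasts, was at 2.03, 1.82 and 1.53 CPM in WT and 4.46, 8.17 and 5.01 CPM in KO (log2 fold change 1.71, SE 0.52, unadjusted p = 0.00401). Igf2, a growth factor made in meninges and choroid plexus, was at 64.7, 35.9 and 25.7 CPM in WT and 87.1, 70.0 and 58.4 CPM in KO (log2 fold change 0.78, SE 0.30, unadjusted p = 0.0296), where WT input 1 overlapped KO. Exons of Col1a1 and of Igf2 overlap Gm17329 and Igf2as on the other strand, so their reads cannot be assigned to a strand. Igf2 passed the adjusted threshold without WT input 1, without both libraries that stood apart, without the filter and with the pool number as a block.

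Of the vessel genes, 7 of 9 mural and 8 of 14 endothelial ones passed the filter, 2 in each list through KO only, with Tagln and Abcb1a among those. With no filter, 8 of 9 mural genes were higher in sign (median 0.71) and 10 of 14 endothelial ones (median 0.52). Over the 8 endothelial genes that passed, 2 of them through KO and so bound to differ, the median was 0.58. It was 0.34 without WT input 1, 0.41 without KO input 3 and 0.18 without both. Acta2 and Tagln, of smooth muscle, were higher at an unadjusted p under 0.05, and exons of Tagln overlap Pcsk7 on the other strand. So was Abcb1a, the efflux pump of the blood-brain barrier, at 0.871, 2.27 and 0.873 CPM in WT and 4.93, 7.94 and 3.70 CPM in KO. Of its exon stretches 30.5% have another place. The meningeal sums were 62.4 to 129 CPM in WT and 123 to 176 CPM in KO, the mural sums 56.3 to 106 and 99.1 to 101, and the endothelial sums 32.7 to 47.7 and 42.0 to 62.2. Of 15 genes of reactive glia 10 passed the filter, 3 through KO, and their sums were 171 to 201 CPM in WT and 163 to 233 CPM in KO. C4b, a complement component, was at 5.51, 4.999 and 5.67 CPM in WT and 26.1, 8.61 and 8.50 CPM in KO without overlap, with KO input 2 the high library (log2 fold change 1.41, SE 0.42, unadjusted p = 0.00363), and 54.3% of its exon stretches have another place. Vim, the intermediate filament vimentin, was at 18.3, 16.4 and 14.2 CPM in WT and 27.9, 21.6 and 20.5 CPM in KO, also without overlap (log2 fold change 0.52, SE 0.22, unadjusted p = 0.0308). The low levels of meningeal and vessel genes are a small share of each library, and their part in other results was not tested.

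Markers of neighbouring structures varied between punches. Choroid plexus genes summed to 16.8, 20.5 and 75.1 CPM in WT and 16.4, 11.9 and 273 CPM in KO input 2, 3 and 4. Ttr, the transthyretin of choroid plexus, supplied most of this in KO input 4, with 231 CPM there and 0.441 in KO input 3. Only 4 of 10 passed the filter, 1 of them (Prlr) through KO and 1 through WT, and their median was 1.18, and 0.02 without KO input 4. Prlr and Kl were higher at an unadjusted p under 0.05. Prlr, the prolactin receptor, was at 2.61, 1.59 and 3.71 CPM in WT and 6.34, 3.97 and 8.06 CPM in KO, without overlap (log2 fold change 1.203, SE 0.50, unadjusted p = 0.0268). It shares exon sequence on its own strand with Agxt2, so its counts are uncertain. Kl, which encodes klotho, was at 3.48, 4.09 and 3.71 CPM in WT and 5.64, 4.19 and 15.5 CPM in KO, with KO input 3 barely above WT. Striatal genes summed to 237, 209 and 537 CPM in WT and 279, 204 and 239 CPM in KO, so WT input 3 was the high library, and 8 of the 9 tested of 10 were lower in KO in sign, and 2 of the 9 had passed the filter through WT. Their median was -0.40, and it was -0.86 without WT input 1, -0.71 without both libraries that stood apart and 0.16 without WT input 3. With no filter 9 of all 10 striatal genes were lower in sign, with a median of -0.53. Hypothalamus and amygdala genes summed to 940 to 1225 CPM in WT and 1187 to 1371 CPM in KO, and 9 of the 10 that passed the filter, of 19, were higher in sign, and 1 of the 10 had passed through KO. With no filter 14 of 18 with counts were higher. The median over the 10 was 0.25 with 1 gene at an unadjusted p under 0.05, 0.48 with 3 without WT input 1, and 0.08 without WT input 2. WT input 3, the pool with the highest striatal sum, is also the pool without which the window around Fosb held 17 lower genes, and the part of dissection in this was not tested.

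Within hippocampus, dentate gyrus granule cell genes were higher in KO in 6 of the 9 tested of 10 by sign (median 0.32, with 1 passing the filter through KO), with Prox1, Dsp and Calb1 at an unadjusted p under 0.05. With no filter 7 of all 10 were higher in sign, with a median of 0.48. The sums of this list were 313 to 367 CPM in WT and 364 to 480 CPM in KO. Calb1 alone supplied 194 to 217 CPM of these in WT and 225 to 273 CPM in KO. Prox1, the transcription factor that sets granule cell identity, was at 28.7, 51.8 and 29.9 CPM in WT and 36.6, 72.2 and 63.4 CPM in KO, which overlap (log2 fold change 0.64, SE 0.28, unadjusted p = 0.0403). Its exons overlap Gm17566 on the other strand. All 5 CA1 genes tested, of 7, were lower in sign, and none was at that p. Their median was -0.16, and it ran from -0.32 without KO input 2 to -0.04 without KO input 3. Among glutamate neuron genes, Tbr1, a cortical transcription factor, had a log2 fold change of -0.43 (unadjusted p = 0.0143). The medians of these lists kept their sign with RLE scaling and with total counts.

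**Figure D5:**
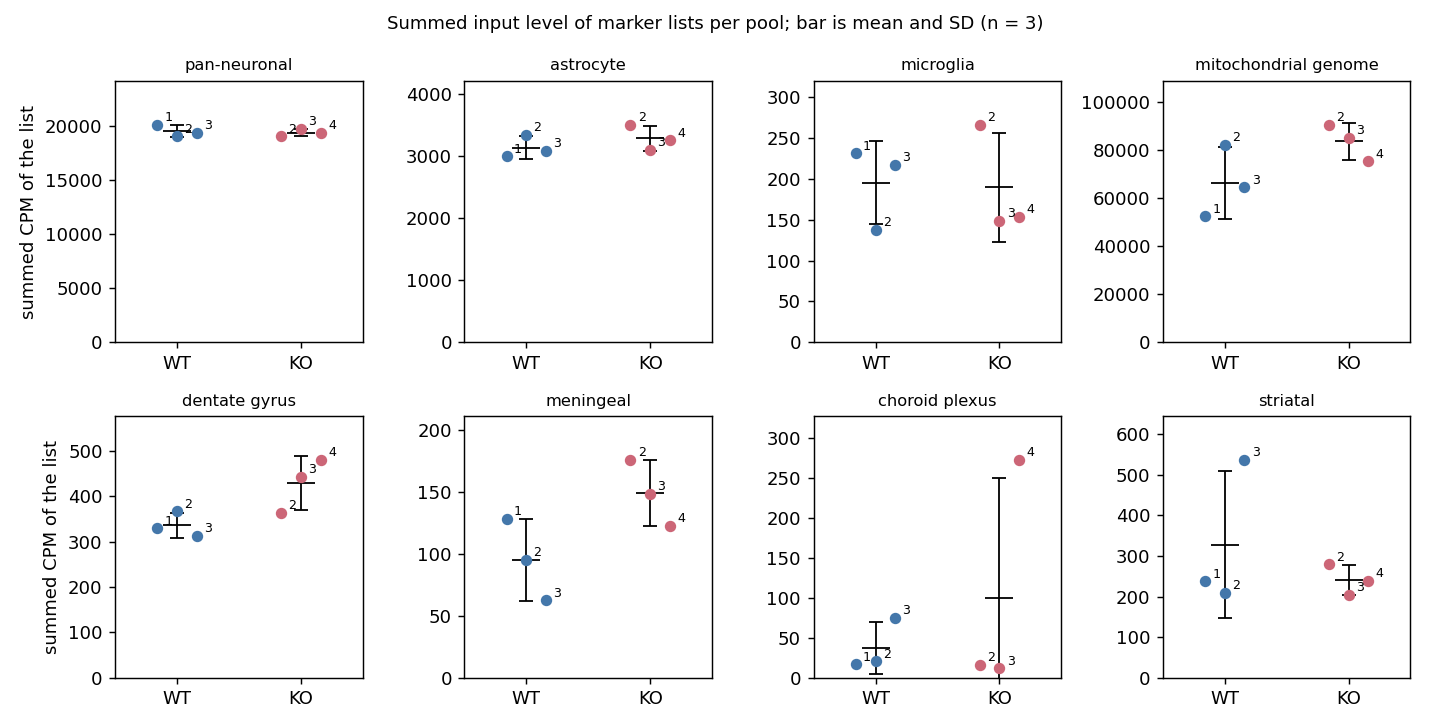
Summed CPM of marker lists in each input pool (points, numbered by pool, y axis from 0) with group mean and SD (n = 3). Pan-neuronal and astrocyte sums are near level. Meningeal and mitochondrial sums reach higher in KO, the highest choroid plexus sum is that of KO input 4 and the highest striatal sum that of WT input 3.

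Transcripts of the mitochondrial genome were higher in KO in 19 of 21 tested by sign, with a median log2 fold change of 0.29. Of those 21, 2 had passed the filter through KO, and the other 16 of 37 did not pass it. With no filter 27 of 32 with counts were higher, with a median of 0.32. Their share of counts was 5.29%, 8.20% and 6.42% in WT input 1, 2 and 3 and 9.05%, 8.34% and 7.54% in KO input 2, 3 and 4. WT input 2 was higher than KO input 4, so the groups overlapped. mt-Nd6, the complex I subunit encoded on the light strand, was at 408, 516 and 449 CPM in WT and 641, 727 and 566 CPM in KO without overlap (log2 fold change 0.49, SE 0.12, unadjusted p = 0.000442). mt-Nd5 was at 956, 1363 and 1114 CPM in WT and 1743, 1585 and 1406 CPM in KO (log2 fold change 0.46, SE 0.12, unadjusted p = 0.00142). These genes overlap on opposite strands, so without the strand setting their reads cannot be told apart. Both passed the adjusted threshold without the filter on low counts and with the pool number as a block. WT input 1, which stood apart, had the lowest share, and without it the median was 0.13. With single pools left out the median ran from 0.13 to 0.49.

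A list of 12 genes, some but not all of those that the study names for its TRAP or cell culture experiments, was read in the whole punch as well. Peg10 and Gaa were higher and Scg5 lower at an unadjusted p under 0.05, and since the study drew on the same pools in naming genes, the list is no independent evidence of direction. Gaa, the lysosomal enzyme that breaks down glycogen, was at 150, 159 and 162 CPM in WT and 216, 181 and 194 CPM in KO without overlap (log2 fold change 0.33, SE 0.11, unadjusted p = 0.00935). Adra2a, the α2A-adrenergic receptor, was at 38.0, 15.9 and 17.9 CPM in WT and 21.4, 20.1 and 20.3 CPM in KO. WT input 1 was the high library, the log2 fold change was -0.20 (SE 0.28, unadjusted p = 0.482), and it turned to 0.28 without that library. Nefm, Prkcb, Kalrn, Igfbp6, Actb, Arhgap36, Elavl2 and Kctd9 had overlapping groups and log2 fold changes from -0.28 to 0.22. Exons of Nefm overlap Nefl on the other strand.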

How the data were processed

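The protocol made libraries from 5 ng of total RNA with a SMARTer stranded kit. The authors deposited raw counts, the number of reads per gene in each library, made with TopHat on mm9 and HTSeq-count on the Gencode vM1 annotation. TopHat, DESeq2 and mm9 are named in the submitters' processing notes. The strand setting is not given in the sources used here. Rows that name no gene were left out. Among input reads with a single place, 21.0% to 27.1% had no gene, 2.11% to 2.30% were ambiguous, and 3438372 to 6518589 alignments per input library were not unique. All 37310 gene identifiers matched Gencode vM1.

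Counts were tested with edgeR 4.0.16 in R 4.3.3 (filterByExpr by group, TMM, robust quasi-likelihood test, Benjamini-Hochberg adjustment over all genes tested). The SE is the size of the log2 fold change divided by the square root of F. Permutation tests used log2(CPM + 0.5). TRAP was fitted in the same way, and the difference between fractions as an interaction over 12 libraries, which ignores that both fractions of a pool share mice. Steps were tested on simulated data. Stretches of 75 bases every 25 bases of exons were aligned to mm9 with minimap2 2.31-r1302, and copies were compared with Gencode vM1 coding transcripts with BLAST 2.17.0. Old symbols were matched for 4 list entries, among them Map2.

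The genes named were Fosb, those called, the next smallest p-values with groups apart up to 10 in each direction, 12 of the genes the study names, list members with the smallest p or the highest level, neighbours within 10 Mb, and genes that differed between fractions. Values were already known when the source genes of copies, Ercc1, Rtn2 and Slc17a7 were picked. The lists and the comparison were chosen with earlier results of these data known. Nothing says that mice of different pools were processed apart, so p-values measure the spread between these pools. Both genotypes have pools numbered 2 and 3, from separate mice, and libraries with the same number did not deviate together (correlations 0.00 and -0.07). Number 1 occurs only in WT and 4 only in KO, so the block fit compared genotypes in pools 2 and 3 alone. Alternatives were RLE, total counts, other filters, no mitochondrial genes, no robust dispersion, DESeq2 1.42.0, limma 3.58.1 voom with quality weights, all 12 libraries, a block for pool number, and leaving out each pool. Leaving out both WT input 1 and KO input 3 was added after the data were seen. Some results are not reported here.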

Additional observations from a re-analysis of the deposited data

Results flagged for a closer look

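Epas1 changed differently in input and TRAP by the test of the difference between the fractions. KO minus WT in input exceeded that in TRAP by 1.38 on the log2 scale (SE 0.23, edgeR adjusted p = 0.0233 over 13214 genes), with 2 of 3 KO input pools above every WT input pool and 3 of 3 KO TRAP pools below every WT TRAP pool. Over 9 alternatives the difference ran from 1.18 to 1.63 and its adjusted p from 0.0191 to 0.796, and the call was lost in 5, all of which left out a pool.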

How the results depend on the processing

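Genes called, 4 in the analysis reported, numbered 8 with DESeq2, 7 with all 12 libraries, 7 with limma voom, 19 with no filter, 20 with the replicate block and 14 without both libraries that stood apart. Those higher were 8 with no filter, 9 with the block and 6 without both, against 1. Those lower were 7 with DESeq2, 6 with all 12 libraries, 6 with limma voom, 11 with no filter, 11 with the block and 8 without both, against 3. Leaving out single pools gave 1 to 5 calls, 1 to 2 higher and 0 to 3 lower. With 0 lower calls (edgeR, without KO replicate 2 or WT replicate 3) there were 175 and 196 lower genes at an unadjusted p under 0.05. Genes at that p, 371 here, were 557 with limma voom, 781 with no filter, 618 with the block, 569 without both, and 306 to 665 with single pools left out. The pool number as a block is no pairing by mouse, and with it the differences are not weaker or stronger effects. Genotype in that fit rested on pools 2 and 3 alone. Lower genes near Fosb, 29 here, were 17 to 28 with single pools left out. Calls between fractions, 1 here, were 0 to 1. Fosb ran from -0.77 to -0.50 over the alternatives and was never called.

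Among the named genes, signs turned in 6 that the study names, all with log2 fold changes within 0.22 of 0. Adra2a became 0.30 without both libraries that stood apart, 0.14 with limma voom and 0.29 with the block, and ran from -0.42 to 0.28 with single pools left out, the last without WT replicate 1. Elavl2 became -0.12, -0.016 and -0.13 in the same analyses and ran from -0.10 (without WT replicate 1) to 0.23. Actb became 0.021 and Kctd9 -0.072 with the block. With single pools left out, Nefm ran from -0.33 to 0.022 (without KO replicate 2), Kctd9 from -0.056 (without KO replicate 4) to 0.13, and Arhgap36 from -0.20 (without KO replicate 2, and -0.16 without WT replicate 2) to 0.95. The cause was not tested. RLE and total counts changed no call. With 3 pools a genotype and 3416030 to 4636374 counts each, genes under about 1 CPM were seen in few reads.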
